A study of Mus musculus with 10 samples.

Results

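The aminoacyl-tRNA synthetases were followed as a family of 35 genes, 20 for cytosolic and 15 for mitochondrial enzymes, among the 46956 named loci of a transcriptome of mouse tumour-associated macrophages. The members were taken by gene symbol. The family was selected on the measured level of Vars, the cytosolic valyl-tRNA synthetase, which was lower after treatment. The values of Vars are therefore given as a description and without a test. The other 34 genes came with it by name, and their adjusted p-values are those of the comparison over all loci. These tests use the same contrast that drew attention to Vars, so nothing about the family is read from how many members passed. Lars2 was left out because its locus collects ribosomal RNA fragments.

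The tumours came from 4T1, a breast carcinoma cell line of the mouse, placed in the fat pad of the mammary gland of BALB/cJ animals. One group of 5 samples came from mice given PBS as the vehicle, and the other group of 5 from mice given JHU083 at 1 mg/kg from day 7 to day 13. JHU083 releases 6-diazo-5-oxo-L-norleucine, an analogue of glutamine that blocks enzymes using this amino acid. On day 14 tumours were taken, and in both groups the sort kept 7AAD- cells with CD45, F4/80 and CD11b at the surface and without Ly6G, Ly6C or CD8. The labels give neither the age of the mice nor whether a sample is 1 animal or a pool, so the p-values measure the spread between these samples, which may in part be technical. In bulk RNA of this kind, fewer cells of a type and less RNA per cell cannot be told apart.

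Each synthetase joins 1 amino acid to the tRNAs that carry it, which makes the charged tRNAs used by ribosomes. Nuclear genes encode separate enzymes for the cytosol and for the mitochondrial matrix, while Gars and Kars each supply both compartments. Several cytosolic enzymes sit together in the multisynthetase complex, held by the scaffold proteins encoded by Aimp1, Aimp2 and Eef1e1. Uncharged tRNA is the signal that activates the kinase GCN2, which phosphorylates the initiation factor eIF2 and raises translation of the transcription factor ATF4. Synthetase genes are themselves known among the targets of ATF4, and Wars is also known to respond to interferon gamma.

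Known ATF4 sites have a characteristic core, and the members holding it were looked up in RefSeq promoters (GRCm38.p6), each covering 250 bases before to 50 bases after the start. Of the 35 members, 27 matched this table, with 28 windows. Vars was among the members without an entry, so neither Vars nor the other unmatched members were searched for any motif. The motif TGATGNAA, searched on both strands, was present in 5 of the 13 matched cytosolic genes and in 0 of the 14 matched mitochondrial genes. Among all 27025 genes in the table, 4.51% held it, and among all 32851 promoters 3.97%. The 5 windows are shown because they set the cytosolic members that hold the element beside their expression below. Each is 60 bases, read 5′ to 3′ on the strand of the gene, with the match in capitals.
Aars (chr8:111033704-111033763, plus strand): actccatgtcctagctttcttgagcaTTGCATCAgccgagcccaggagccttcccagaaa
Gars (chr6:55037945-55038004, plus strand): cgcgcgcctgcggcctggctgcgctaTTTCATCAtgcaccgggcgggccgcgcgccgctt
Iars (chr13:49682095-49682154, plus strand): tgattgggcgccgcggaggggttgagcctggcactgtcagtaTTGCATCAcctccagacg
Tars (chr15:11399640-11399699, minus strand): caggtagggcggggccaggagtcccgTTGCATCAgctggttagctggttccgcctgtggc
Yars (chr4:129189868-129189927, plus strand): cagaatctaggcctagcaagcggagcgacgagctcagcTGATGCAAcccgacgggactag

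In 4 of these windows the match lies on the strand opposite to the gene, and in Yars it lies on the same strand. Its first base stands 112 bases before the start in Aars, 30 in Gars and 15 in Tars, while in Iars and Yars the match lies just after the start. The promoter of Aars holds a second match, TTTCATCA, near its start. A match is a description of letters and not evidence of binding. Other motifs were searched on both strands in the same windows, and matches of different motifs did not overlap in the members. The E box CACGTG, the core bound by MYC, was present in 4 of the 13, Aars, Farsb, Iars and Tars, and in 1 of the 14, Ears2, against 8.09% of all genes. The STAT element TTCNNNGAA was present in 2 of 13 matched cytosolic genes, Aars and Kars, and in Nars2, against 9.55% of all genes.

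The libraries held 11147723 to 15740487 recovered fragments. Genes of the mitochondrial genome took 1.53% to 2.09% of them in vehicle and 2.14% to 2.44% in JHU083, without overlap, and the part of this in the results was not tested. Among cell type markers, the summed level of 10 macrophage genes was 21215 to 25256 CPM (fragments scaled to a common library size) in vehicle and 26562 to 33659 in JHU083, with 4 genes higher, and Adgre1, the gene for F4/80, was among them. Itgam, for CD11b (0.03, adjusted p = 0.774), and Ptprc, for CD45 (0.3, adjusted p = 0.0816), did not pass. Lyz2 in this sum had means of 6979 and 10458 CPM. Beside the marker counts, 18.4% of all loci were called higher and 18.3% lower, and 22.9% and 23.2% without JHU083 replicate 3. All 8 tumour epithelial genes fell, from summed levels of 293 to 642 CPM to 102 to 216. For fibroblasts 4 of 6 genes fell, from sums of 98.8 to 221 CPM to 24.7 to 112. Neutrophil genes summed to 20.2 to 29.7 CPM and 3.91 to 11.5, and both genes that could be fitted fell, while Ly6g, Mpo, Elane, Camp and Ngp were at 0 in some samples. Of the genes too low to fit, Mpo and Elane had more fragments in JHU083 (25 against 7 and 21 against 2 in total). Ly6g, Camp, Ltf and Ngp had fewer. For T cells the sum was 14.3 to 17.8 CPM and 27.0 to 43.4, made mostly of Cd4, with Cd3e and Cd8a at 0 in some samples. Sums of the B cell, dendritic cell and eosinophil lists were at most 17.4 CPM in every sample, and in them Cd79b (0.51, adjusted p = 0.0498) and the eosinophil gene Siglecf (0.89, adjusted p = 0.0115) were called higher. Without JHU083 replicate 3 the call of Cd79b was lost and that of Siglecf held, 5 macrophage genes were higher, and 8 epithelial, 4 fibroblast and 3 of 4 fitted neutrophil genes were lower. The part of these other cell types in the results was not tested. Ribosomal RNA repeat loci were listed at 0 in vehicle replicates 2, 4 and 5 and JHU083 replicates 1 and 3, and held 2.87% to 5.59% of fragments in the others. JHU083 replicate 3 stood apart within the family, as the highest of its group for 15 of 20 cytosolic and 12 of 15 mitochondrial members. It also had the lowest epithelial sum and the lowest fibroblast sum, and the list counts are given with and without it.

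Vars, on the plus strand at chr17:35000987-35016322 (GRCm38, GENCODE M21), had the largest log2 difference of the 35 members. In replicates 1 to 5, the order used for all values below, it stood at 201, 189, 163, 173 and 190 CPM in vehicle and at 91.6, 90.1, 87.8, 89.8 and 84.0 CPM in JHU083. The lowest vehicle sample was thus far above the highest JHU083 sample. The means were 183 ± 15 and 88.7 ± 2.95 CPM (SD, n = 5 each), a level 2.07-fold lower in JHU083, and the log2 difference was -1.05 ± 0.07 (SE). Vars made up 9.08% ± 0.589 of the summed cytosolic synthetase CPM in vehicle and 5.24% ± 0.418 in JHU083 (SD, n = 5 each). The JHU083 samples, replicate 3 included, lay within a narrow range for this gene.

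Of the other 19 cytosolic genes, 12 fell, 1 rose and 6 did not pass an adjusted p of 0.05 in edgeR's quasi-likelihood test with Benjamini-Hochberg adjustment. Over all 12500 loci tested, 18.3% were called lower and 18.4% higher, 36.7% in either direction. The point estimate was below 0 for 18 of these 19 genes. The median log2 difference of the 20 cytosolic genes was -0.29, against 0.01 for all loci tested. Groups did not overlap in the lower direction for 7 of the 19, against 11.1% of all loci, and in the higher direction for Nars, against 11.2%. Among the 15 mitochondrial genes 5 fell, 0 rose and 10 did not pass, with a median of -0.16, and 2 had groups that did not overlap. At an unadjusted p under 0.05 edgeR had 1 mitochondrial gene higher, Wars2, and DESeq2 and limma-voom also called 0 higher after adjustment. All 35 members passed the filter on low counts. Without JHU083 replicate 3, 14 cytosolic and 7 mitochondrial genes were called lower, with medians of -0.31 and -0.26. In that fit 23.2% of 12659 loci were called lower and 22.9% higher. Whether the cytosolic and mitochondrial genes differed from each other in response was not tested.

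**Figure D1:**
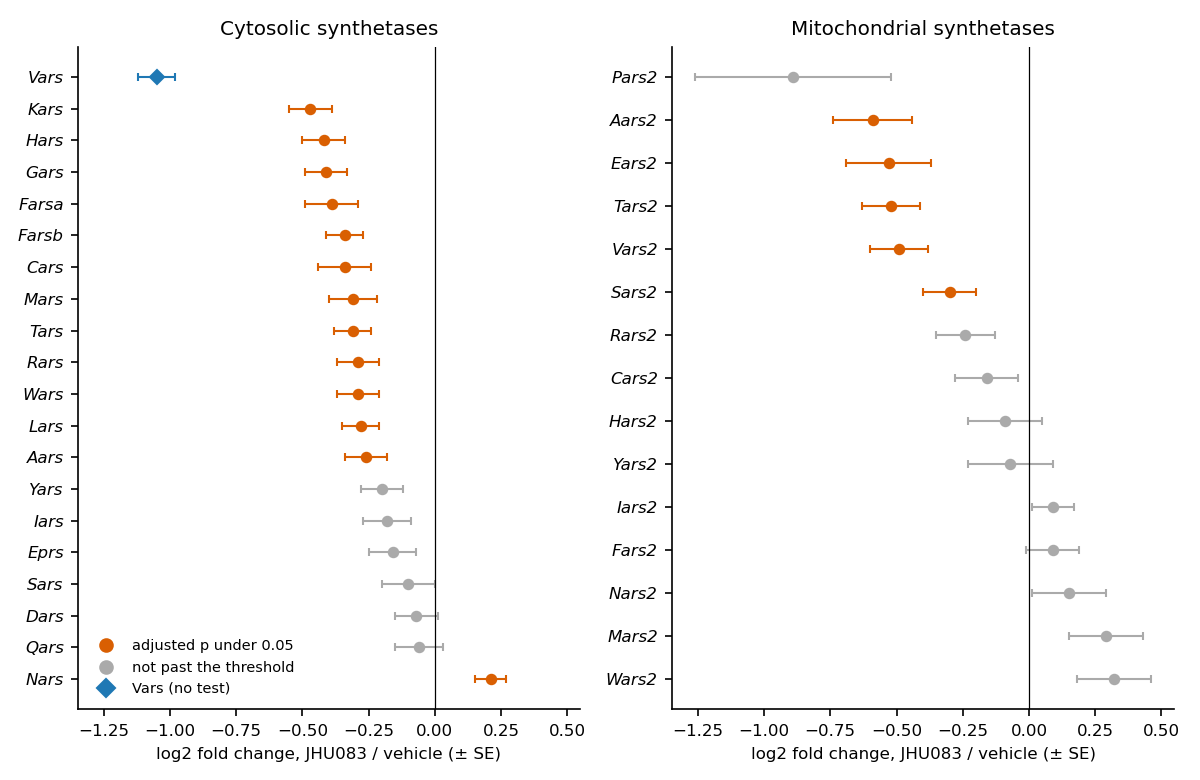
Log2 fold change of each member, JHU083 over vehicle (x axis; bars, SE; 5 samples per group), with cytosolic and mitochondrial genes in separate panels. Vars, shown as a diamond without a test, lies at -1.05, and among the cytosolic genes Nars alone has an estimate above 0.

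The samples also divide by whether the ribosomal repeat loci were listed at 0. Within the 5 samples with those loci at 0 the median differences were -0.26 for cytosolic and -0.15 for mitochondrial genes, and 0 genes of either list were called lower by edgeR, with 8 cytosolic and 3 mitochondrial genes lower at an unadjusted p under 0.05. Of all 12716 loci in that fit, 4.6% were called lower. Within the other 5 samples the medians were -0.31 and -0.26, with 6 cytosolic and 3 mitochondrial genes called lower, against 11.9% of 12965 loci. Each such fit compares 3 samples with 2. With this status as a covariate over all 10 samples, 12 cytosolic and 5 mitochondrial genes were called lower, against 17.6% of loci. Vars stood at -1.04 and -1.06 in these separate fits.

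Within the multisynthetase complex, 4 of the 8 enzymes fell, with and without JHU083 replicate 3. Beside this count and those of the other groups below, the share of all loci called lower was 18.3%, and 23.2% without that sample. Kars, the lysyl enzyme, stood at 137, 126, 127, 119 and 133 CPM in vehicle and at 89.9, 82.3, 108, 94.0 and 90.2 CPM in JHU083. All JHU083 samples were below all vehicle samples. The fall was 0.47 ± 0.08 on the log2 scale (SE; adjusted p = 0.00044). Lars, the leucyl enzyme that also takes part in leucine sensing by mTORC1, stood at 78.4, 70.9, 77.2, 78.9 and 78 CPM in vehicle and 60, 60.9, 66.1, 63.8 and 64 in JHU083, again without overlap. It fell by 0.28 ± 0.07 (adjusted p = 0.00432). The arginyl enzyme gene Rars gave 100, 103, 101, 94.1 and 104 CPM and then 85.5, 65.5, 87.4, 84.6 and 86.8 CPM, and JHU083 replicate 2 was the lowest by a wide margin. Its fall of 0.29 ± 0.08 had an adjusted p of 0.0142. Mars, the methionyl enzyme that also serves the initiator tRNA, measured 68.6, 61.2, 63.4, 65.6 and 68.8 CPM in vehicle and 47.0, 52.3, 63.7, 51.1 and 50.4 CPM in JHU083. In this case JHU083 replicate 3 lay among the vehicle samples and the other JHU083 samples lay below them. Mars fell by 0.31 ± 0.09 (adjusted p = 0.0124). Its exons share 68 bases with Ddit3 on the other strand, and no source used here gives the strand setting of the counting.

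The other 4 enzymes of the complex, Dars, Eprs, Iars and Qars, did not pass the test. Their differences were -0.07, -0.16, -0.18 and -0.06, with adjusted p-values from 0.127 to 0.612. Qars, which charges tRNA with glutamine, the amino acid that JHU083's active form resembles, ranged from 140 to 165 CPM in vehicle and from 125 to 179 CPM in JHU083. The JHU083 range enclosed the vehicle range, and the means were 154 ± 10.2 and 148 ± 20.9 CPM (SD, n = 5 each). The SE of its difference was 0.09 on the log2 scale. Eprs, the fused glutamyl and prolyl enzyme, ranged from 116 to 137 CPM and from 94.2 to 130. Dars, the aspartyl enzyme, ranged from 49.4 to 62.6 CPM and from 48.6 to 58.2. Iars, the isoleucyl enzyme, ranged from 61.3 to 72.9 CPM and from 51.7 to 66.7. In all 4 of these genes the groups overlapped.

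Outside the complex, 8 of 11 tested cytosolic genes fell and Nars rose, and without JHU083 replicate 3 10 fell (all loci lower, 18.3% and 23.2%). Gars, the glycyl enzyme of both compartments, stood at 91.5, 90.3, 84.6, 81.6 and 93.6 CPM in vehicle and at 58.4, 62.9, 78.6, 66.0 and 67.8 CPM in JHU083. The groups did not overlap, although JHU083 replicate 3 came close to the lowest vehicle samples. Gars fell by 0.41 ± 0.08 (adjusted p = 0.00212). Hars, the histidyl enzyme, gave 71.4, 62.8, 61.6, 57.4 and 67.0 CPM in vehicle and 49.0, 42.4, 50.8, 47.7 and 48.8 CPM in JHU083. All of the treated values lay below the vehicle values, and the fall was 0.42 ± 0.08 (adjusted p = 0.00114). Hars and its mitochondrial counterpart Hars2 share 195 exonic bases on opposite strands, so reads there cannot be assigned without strand.

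The phenylalanyl enzyme is a tetramer of the products of Farsa and Farsb, and both fell. Farsa stood at 82.5, 68.2, 70.5, 78 and 82.4 CPM in vehicle and at 54.9, 53.4, 71.9, 56.3 and 54.2 CPM in JHU083. JHU083 replicate 3 was the one treated sample inside the vehicle range. Farsa fell by 0.39 ± 0.10 (adjusted p = 0.00585). Farsb, counted with 4833412K13Rik at 1 locus, gave 59.2, 53.6, 59.1, 53.4 and 64.2 CPM in vehicle and 43.4, 46.2, 47.3, 44.8 and 46.4 CPM in JHU083, without overlap. Its fall was 0.34 ± 0.07 (adjusted p = 0.00269). Farsb shares 248 exonic bases with Sgpp2 on the other strand.

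Among the remaining stand-alone enzymes, Tars showed little spread in vehicle. This threonyl enzyme gene gave 63.8, 64.9, 63.1, 66.0 and 67.3 CPM in vehicle and 46.4, 50.4, 57.9, 52.0 and 55.8 CPM in JHU083, with no overlap. It fell by 0.31 ± 0.07 (adjusted p = 0.00564). Cars, the cysteinyl enzyme, stood at 38.7, 37.1, 31.2, 39.8 and 35.7 CPM and at 24.9, 25.4, 33.3, 28.9 and 31.3 CPM. Here vehicle replicate 3 was lower than 2 of the treated samples. The fall of Cars was 0.34 ± 0.10 (adjusted p = 0.0159).

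Wars, the tryptophanyl enzyme, stood at 88.4, 74.3, 69.6, 82.7 and 86.5 CPM in vehicle and at 62.3, 61.5, 70.3, 65.8 and 68.2 CPM in JHU083. JHU083 replicate 3 exceeded the lowest vehicle sample, and the other treated samples lay below all vehicle samples. Wars fell by 0.29 ± 0.08 (adjusted p = 0.0133). Aars, the alanyl enzyme, was counted together with Exosc6, a subunit of the RNA exosome. Its locus gave 167, 155, 147, 151 and 175 CPM in vehicle and 135, 126, 150, 120 and 134 CPM in JHU083. As for Wars, replicate 3 was the one treated sample within the vehicle range. The locus fell by 0.26 ± 0.08 (adjusted p = 0.0191), and this call was lost without vehicle replicate 1 (-0.24, adjusted p = 0.0502), vehicle replicate 5 (-0.22, 0.0521) or JHU083 replicate 4 (-0.22, 0.0529).

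Nars, the asparaginyl enzyme, moved in the other direction. It stood at 213, 207, 219, 226 and 224 CPM in vehicle and at 255, 227, 260, 254 and 263 CPM in JHU083. JHU083 replicate 2 was just above the highest vehicle sample, and the other 4 were well above it. Nars rose by 0.21 ± 0.06 (adjusted p = 0.0197). With scaling by library size the rise was 0.13 (adjusted p = 0.0929), and the call was also lost without vehicle replicate 2 (0.19, adjusted p = 0.0576). Asparagine is made from glutamine by the product of Asns, whose own transcript was at 11.2 ± 0.964 CPM with vehicle and at 13.5 ± 2.56 CPM with JHU083 (SD, n = 5 each; adjusted p = 0.134).

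Sars and Yars, both outside the complex, did not pass. Sars, the seryl enzyme that also charges the selenocysteine tRNA, ranged from 151 to 185 CPM in vehicle and from 136 to 200 in JHU083. Yars, the tyrosyl enzyme, ranged from 42.2 to 49.6 CPM and from 36.9 to 45.7, with a difference of -0.20 ± 0.08 (adjusted p = 0.0625). Without JHU083 replicate 3 both were called lower, Sars at -0.20 (adjusted p = 0.0455) and Yars at -0.25 (adjusted p = 0.014), and Yars was also called without vehicle replicate 3 (-0.24, adjusted p = 0.0428). Of the 5 genes found with the ATF4 element among the members searched, Aars, Gars and Tars fell, and Iars and Yars did not pass. By fold type, 5 of 9 tested class I enzymes and 7 of 10 class II enzymes fell, with Eprs counted in class I. Without JHU083 replicate 3 these counts were 6 and 8, and the shares of all loci are those given for the complex. Medians of the classes over all samples were -0.29 with Vars included and -0.33.

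**Figure D2:**
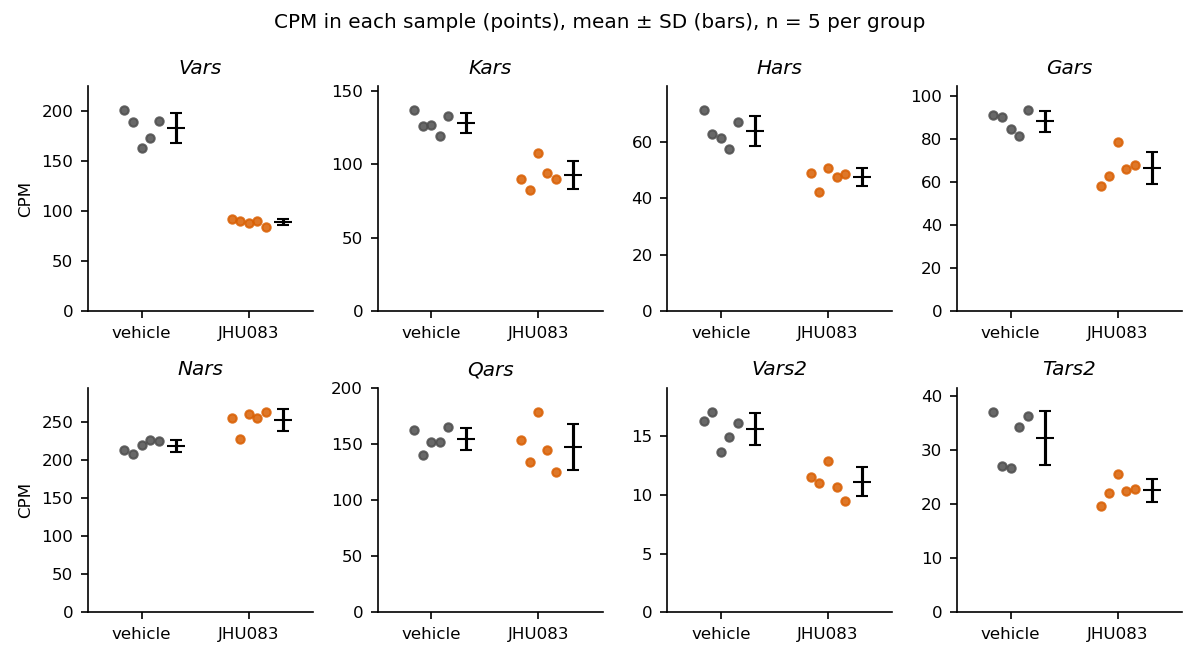
CPM of 8 members in each sample (points), with mean ± SD bars and 5 samples per group. Vars, Kars, Hars, Gars, Vars2 and Tars2 separate with vehicle above JHU083, Nars separates with JHU083 above vehicle, and the groups of Qars overlap.

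Among mitochondrial enzymes, the valyl and threonyl genes separated fully. Vars2, on the minus strand at chr17:35655634-35667592 (GRCm38), stood at 16.3, 17.1, 13.7, 14.9 and 16.1 CPM in vehicle and at 11.5, 11, 12.9, 10.7 and 9.50 CPM in JHU083. It fell by 0.49 ± 0.11 (adjusted p = 0.00314). The antisense gene Gm20483 shares 465 of its exonic bases. Tars2 gave 37.1, 27.0, 26.6, 34.2 and 36.2 CPM in vehicle and 19.7, 22.1, 25.6, 22.5 and 22.8 CPM in JHU083. The vehicle samples of Tars2 were more spread than the treated ones, and the lowest vehicle sample was close to JHU083 replicate 3. Tars2 fell by 0.52 ± 0.11 (adjusted p = 0.00289).

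The alanyl, glutamyl and seryl genes of the mitochondria also fell, with overlapping groups. Aars2 stood at 10.3, 7.92, 10, 11.7 and 11.8 CPM in vehicle and at 7.16, 5.55, 8.50, 5.89 and 7.27 CPM in JHU083, a fall of 0.59 ± 0.15 (adjusted p = 0.00715). Here JHU083 replicate 3 exceeded vehicle replicate 2. Ears2, whose enzyme also loads glutamate on the mitochondrial glutamine tRNA, gave 9.10, 8.23, 6.19, 9.21 and 11.1 CPM in vehicle and 5.05, 6.65, 7.31, 5.89 and 5.50 CPM in JHU083. Vehicle replicate 3 lay inside the treated range. The fall of Ears2 was 0.53 ± 0.16 (adjusted p = 0.0205) and was not called without vehicle replicate 5 (-0.43), JHU083 replicate 1 (-0.47) or JHU083 replicate 5 (-0.49), with adjusted p-values of 0.0508 to 0.0583. Sars2 measured 12.9, 13.9, 12.5, 13.9 and 15 CPM and then 11.3, 10.7, 12.8, 10.4 and 10.1 CPM. Its fall of 0.30 ± 0.10 (adjusted p = 0.0322) was not called in 11 of 22 alternatives, 7 of which left out 1 sample. Those were vehicle replicates 2, 4 and 5 and JHU083 replicates 1, 2, 4 and 5, with falls of 0.27 to 0.31 and adjusted p-values of 0.0518 to 0.082.

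Pars2 and Wars2 had larger differences than some called genes but did not pass. Pars2, the mitochondrial prolyl enzyme, stood at 2.31, 1.90, 0.528, 1.74 and 1.96 CPM in vehicle and at 0.682, 1.17, 1.42, 0.765 and 0.524 CPM in JHU083, from 7 to 34 fragments per sample. Vehicle replicate 3 was as low as the lowest treated sample. The difference was -0.89 ± 0.37 (adjusted p = 0.0752). It was called without vehicle replicate 3 (-1.12, adjusted p = 0.0127) or without JHU083 replicate 3 (-1.10, adjusted p = 0.0343). Wars2, the tryptophanyl enzyme, gave 7.54, 7.24, 9.50, 8.78 and 10.3 CPM in vehicle and 10.9, 12.3, 11.7, 10.9 and 8.38 CPM in JHU083. Its difference was 0.32 ± 0.14 (adjusted p = 0.0778), and JHU083 replicate 5 was the treated sample inside the vehicle range. Without that sample Wars2 was called higher (0.41, adjusted p = 0.0317). Mars2, Nars2, Fars2 and Iars2 had differences from 0.09 to 0.29, and Rars2, Cars2, Hars2 and Yars2 from -0.24 to -0.07. Adjusted p-values for these 8 genes ran from 0.108 to 0.774, and Rars2 was called lower without JHU083 replicate 3 (-0.29, adjusted p = 0.0413). Fars2, the phenylalanyl enzyme, ranged from 21.4 to 25.7 CPM in vehicle and from 23.1 to 29.9 in JHU083, and Iars2, the isoleucyl enzyme, from 45.3 to 54.9 and from 46.4 to 59.1. The asparaginyl gene Nars2 ranged from 12.5 to 13.9 CPM and from 10.4 to 19.2, and the methionyl gene Mars2 from 4.00 to 6.04 and from 5.89 to 6.56. The arginyl gene Rars2 ranged from 15.1 to 19.3 CPM and from 11.8 to 16.4, and the cysteinyl gene Cars2 from 15.4 to 20 and from 14.0 to 21.2. In each of these 6 genes the groups overlapped. The histidyl gene Hars2 ranged from 13.3 to 17.5 CPM and from 10.6 to 18.9, and the tyrosyl gene Yars2 from 8.86 to 13.0 and from 8.52 to 15.4, also with overlap. Iars2 shares 2034 exonic bases, 23.0% of its exons, with Rab3gap2 on the other strand, and Fars2 shares 501 bases with Nrn1.

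The members held 12 pairs of a cytosolic and a mitochondrial gene with the same name stem. Phenylalanine, glutamate and proline also have an enzyme in both lists, but their cytosolic enzymes are the tetramer of Farsa and Farsb and the fused Eprs, so they were left out of the pairing. In 8 pairs both estimates were below 0, in 3 pairs the cytosolic estimate was below 0 and the mitochondrial one above it, and in the asparaginyl pair both were above 0. The opposite pairs were those for isoleucine, methionine and tryptophan, and none of their mitochondrial genes passed the test. Outside the pairs, Farsa and Farsb fell and Fars2 had an estimate of 0.09 and did not pass, while the estimates of Eprs, Ears2 and Pars2 were all below 0. The mean log2 ratio of cytosolic to mitochondrial CPM was lower in JHU083 for 8 pairs and higher for 4, those of Aars, Nars, Sars and Tars, and the groups overlapped in 10 of the 12. The ratio is given as a description for the valyl pair, which rests on the gene that selected the family, and for the methionyl pair, named after its values were seen. Vars over Vars2 was 12.3, 11.1, 11.9, 11.7 and 11.8 in vehicle and 7.95, 8.17, 6.80, 8.39 and 8.85 in JHU083. Mars over Mars2 was 11.3, 12, 12, 16.4 and 14.4 in vehicle and 7.66, 8.38, 9.70, 8.35 and 8.54 in JHU083. In these 2 pairs the treated samples held fewer cytosolic transcripts per mitochondrial transcript. For Mars the numerator fell and Mars2 itself did not pass, at 5.04 ± 0.746 and 6.19 ± 0.243 CPM (SD, n = 5 each).

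**Figure D3:**
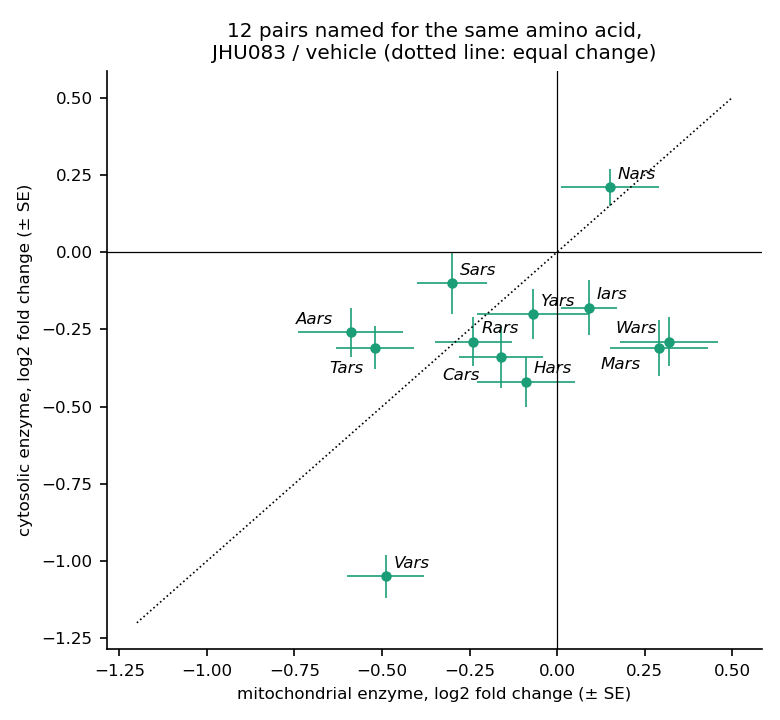
Log2 fold change of the cytosolic enzyme (y axis) against that of the mitochondrial enzyme (x axis) for 12 pairs named for the same amino acid, JHU083 over vehicle, with SE bars and a dotted line of equal change. Vars lies at -1.05 against -0.49 for Vars2, and the pairs for isoleucine, methionine and tryptophan lie in the lower right part of the plot.

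Summed over the 20 genes, cytosolic synthetases took 2016 ± 71.4 CPM with vehicle and 1699 ± 102 CPM with JHU083 (SD, n = 5 each), a difference of -15.8%. The vehicle sums ran from 1954 to 2107 CPM and the JHU083 sums from 1587 to 1860 CPM. The sums did not overlap, and JHU083 replicate 3 was the highest treated sample. Without Vars the sums were 1833 ± 62.5 and 1610 ± 104 CPM, a difference of -12.2%. One treated sample, replicate 3 at 1772 CPM, then passed the lowest vehicle sample at 1765 CPM. The mitochondrial sums were 247 ± 10.3 and 227 ± 21.6 CPM, from 232 to 257 and from 201 to 260, and overlapped. Since Vars chose the family, these sums are given without a test.

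Levels between genes were compared in FPKM, which divides the fragments by transcript length as well as by library size. All 20 cytosolic genes had a higher mean FPKM in vehicle than any of the 15 mitochondrial genes. Qars was highest at 103 ± 6.55 FPKM, followed by Sars at 85.8 ± 6.43 and Nars at 82.6 ± 2.82 (SD, n = 5 each). Neighbours in the order overlapped between samples in 31 of 34 cases, so most adjacent ranks could not be told apart. The breaks came after Nars, after Vars and after Wars2. Iars, the lowest cytosolic gene, at 15.4 ± 1.92 FPKM overlapped with Tars2, the highest mitochondrial one, at 14.4 ± 2.06. Mars2 was lowest at 0.417 ± 0.0615 FPKM. Vars was the fifth in vehicle at 62.4 ± 5.11 FPKM and the ninth in JHU083 at 27.5 ± 3.21 (SD, n = 5 each). The length behind these values of Vars varied 1.34-fold between samples, so its treatment difference is read from CPM. The median FPKM of cytosolic genes was 28.9 to 34.1 across vehicle samples and 23.6 to 26.8 across JHU083 samples, and that of mitochondrial genes 6.34 to 7.63 and 4.56 to 7.08.

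**Figure D4:**
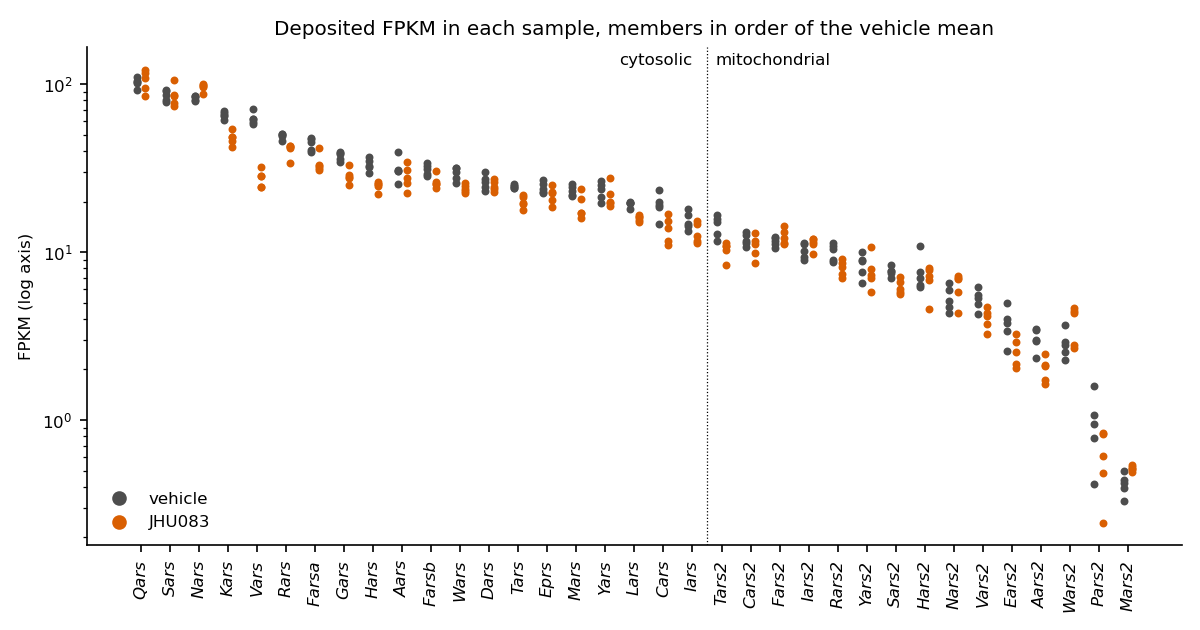
Deposited FPKM (log axis) of the 35 members in each of 5 vehicle and 5 JHU083 samples (points), ordered by the vehicle mean. Cytosolic genes run from Qars at 103 to Iars at 15.4 in vehicle, and mitochondrial genes from Tars2 at 14.4 to Mars2 at 0.417.

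The partners of the synthetases were read from lists taken by function. Of the 3 scaffold genes of the complex and 4 genes of elongation factor 1, which brings charged tRNA to the ribosome, 2 of 7 fell and 0 rose, against 18.3% of all loci lower. Without JHU083 replicate 3, 5 of 7 were called lower, Aimp1, Eef1e1 and Eef1d besides, against 23.2%. Aimp2, a scaffold, fell from 31.6 ± 4.19 to 20.7 ± 3.72 CPM (SD, n = 5 each), by 0.61 ± 0.13 (adjusted p = 0.0021). The other scaffolds did not pass, with Aimp1 at -0.18 ± 0.08 (adjusted p = 0.106) and Eef1e1 at -0.25 ± 0.14 (adjusted p = 0.176). Eef1g, a structural subunit of elongation factor 1, fell by 0.33 ± 0.11 (adjusted p = 0.0351). In the list for tRNA export, editing and recycling, 2 of 7 fell, again against 18.3% of all loci, and without JHU083 replicate 3 Sepsecs was also called higher. Ptrh2, a peptidyl-tRNA hydrolase, fell by 0.51 ± 0.12 (adjusted p = 0.00521). The locus of Aarsd1, counted with Ptges3l and Gm27029, fell by 0.42 ± 0.14 (adjusted p = 0.0291). The product of Aarsd1 clears amino acids wrongly joined to the alanine tRNA. Xpot, the tRNA exporter, stood at 53.0 ± 6.17 and 51.8 ± 5.74 CPM (adjusted p = 0.81). Among 4 genes for mitochondrial glutaminyl-tRNA and initiator tRNA, Gatc, a subunit of the amidotransferase that turns glutamate into glutamine on the tRNA, rose by 0.40 ± 0.12 (adjusted p = 0.0193), and the other 3 did not pass. Without JHU083 replicate 3, Qrsl1 and Gatb were also called lower.

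The next list held GCN2, the sensor of uncharged tRNA, its regulators and the other eIF2 kinases. Of these 6 genes 2 were called higher and 2 lower, or 3 higher and 2 lower without JHU083 replicate 3. Of all loci 18.4% were higher and 18.3% lower, and 22.9% and 23.2% without that sample. Eif2ak4, which encodes GCN2, fell from 23.5 ± 0.772 to 16 ± 2.67 CPM, by 0.55 ± 0.11 (adjusted p = 0.00194). The locus of Gcn1l1, whose product GCN2 needs for activation, fell by 0.28 ± 0.08 (adjusted p = 0.0144). Impact, an inhibitor of that activation, rose from 59.5 ± 9.62 to 87.6 ± 13.6 CPM, by 0.56 ± 0.13 (adjusted p = 0.00386). Eif2ak3, which encodes the endoplasmic reticulum kinase PERK, rose by 0.43 ± 0.09 (adjusted p = 0.00259).

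Of 23 genes listed for the ATF4 pathway 20 could be fitted, of which 5 rose, 7 fell and 8 did not pass, with a median of -0.03. Over all loci 18.4% were called higher and 18.3% lower. Atf4 itself rose from 252 ± 16.2 to 309 ± 30.7 CPM, by 0.29 ± 0.08 (adjusted p = 0.0109). The 4 largest called changes were Psat1, Phgdh, Shmt2 and Ddit4, all lower. Psat1 and Phgdh encode enzymes of serine synthesis and Shmt2 the mitochondrial enzyme that passes a carbon unit from serine to folate. Psat1 fell by 1.15 ± 0.10 (adjusted p = 3.02e-06), Phgdh by 1.11 ± 0.16 (adjusted p = 0.000161) and Shmt2 by 0.89 ± 0.10 (adjusted p = 1.58e-05). Ddit4, an inhibitor of mTORC1 signalling, fell by 0.78 ± 0.12 (adjusted p = 0.000314). Ddit3, Atf3, Nupr1 and Ppp1r15a were the other genes that rose. The other genes that fell were Psph of serine synthesis, the amino acid transporter gene Slc7a1 and Eif4ebp1, an inhibitor of cap-dependent translation. Trib3, Chac1, Asns, Mthfd2, Sesn2, Slc7a11, Slc3a2 and Stc2 did not pass. Without JHU083 replicate 3, 5 genes of the list rose and 9 fell, against 22.9% and 23.2% of all loci.

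Wars is often read with the interferon gamma response, and all 9 fitted genes of that list fell, also without JHU083 replicate 3, with a median of -0.93. Beside this count and that of the proliferation list, 18.3% of all loci were called lower, and 23.2% without that sample. Both lists were chosen with earlier results of these data known. Cxcl10 and Cxcl9, chemokines for activated T cells, fell by 1.79 ± 0.21 (adjusted p = 2.78e-05) and 1.64 ± 0.30 (adjusted p = 0.000932). Gbp2, an interferon-induced GTPase, fell by 1.07 ± 0.15 (adjusted p = 0.000123), and Tap1, the peptide transporter of antigen presentation, by 0.94 ± 0.10 (adjusted p = 1.6e-05). Proliferation genes are listed because growing cells need charged tRNA, and 8 of 10 fell (9 without JHU083 replicate 3), with a median of -1. Mki67 (-0.18, adjusted p = 0.448) and Pcna (-0.26, adjusted p = 0.05) did not pass, and Pcna was called lower without that sample. The genes that fell included Ccnb1, a mitotic cyclin, at -1.23 ± 0.12 (adjusted p = 7.41e-06), and Mcm5, a subunit of the replicative helicase, at -1.18 ± 0.11 (adjusted p = 6.41e-06). Mcm2 and Top2a stood at -1.08 ± 0.12 (adjusted p = 1.82e-05) and -1.02 ± 0.14 (adjusted p = 9.74e-05). The part of these lists in the values of the synthetases was not tested.

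Genes beside Vars on chromosome 17 were also read. Of 9 neighbours 7 could be fitted and 3 fell, also without JHU083 replicate 3, when Hspa1a was called higher. The shares of all loci called lower were 18.3% and 23.2%, and nothing about this neighbourhood is read from the count. Lsm2, an RNA-binding protein of the spliceosome and of mRNA decay, fell from 14.7 ± 0.805 to 8.53 ± 1.08 CPM, by 0.79 ± 0.11 (adjusted p = 0.000104). Ddah2 fell by 0.77 ± 0.17 (adjusted p = 0.00368) and Clic1 by 0.32 ± 0.10 (adjusted p = 0.0239). The neighbouring heat shock genes Hspa1a and Hspa1b did not pass, at 5977 ± 365 and 7478 ± 1197 CPM and at 8181 ± 710 and 9485 ± 1634 CPM.

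Tumour epithelial transcripts moved with the treatment, as given above, so they were set beside the members. In vehicle, the sample with the lowest epithelial sum, replicate 5 at 293 CPM, had 190 CPM of Vars and 133 CPM of Kars. The one with the highest sum, replicate 2 at 642 CPM, had 189 CPM of Vars and 126 CPM of Kars. Among JHU083 samples, replicate 3 had the lowest epithelial sum, 102 CPM, and the highest Kars, 108 CPM, while replicate 4 had the highest sum, 216 CPM, and 94.0 CPM of Kars. The other vehicle samples, replicates 1, 3 and 4, had sums of 407, 562 and 451 CPM and 201, 163 and 173 CPM of Vars. The part of epithelial transcripts in the difference between the groups was not tested.

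**Figure D5:**
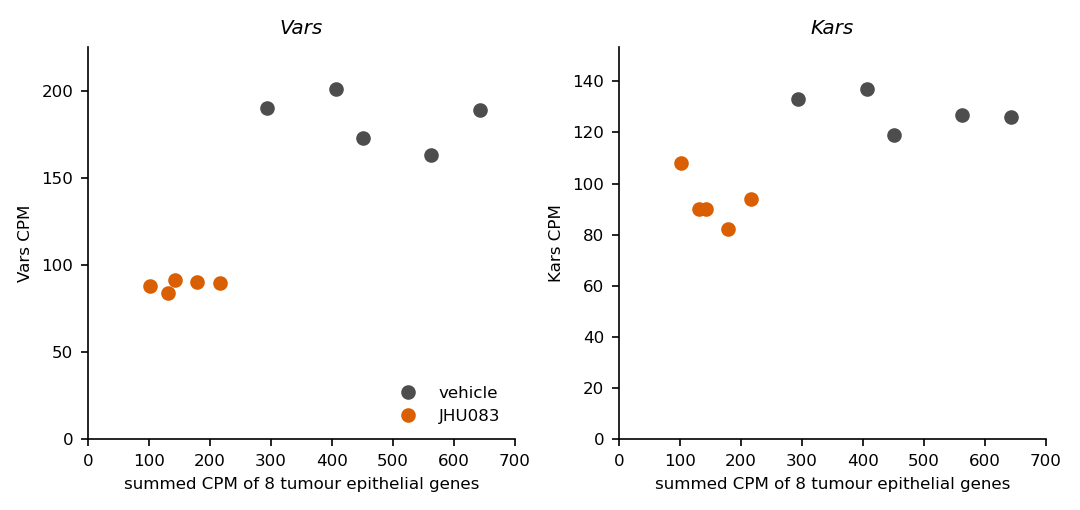
CPM of Vars and of Kars (y axes) against the summed CPM of 8 tumour epithelial genes (x axis), 1 point per sample, 5 vehicle and 5 JHU083. Vehicle samples lie between 293 and 642 on the x axis with Vars between 163 and 201, and JHU083 samples lie between 102 and 216 with Vars between 84.0 and 91.6.

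The precision differed between the lists. Standard errors of the log2 difference ran from 0.06 to 0.10 for cytosolic genes, counted with 365 to 4011 fragments per sample, and from 0.08 to 0.37 for mitochondrial genes, counted with 7 to 860. The median coefficient of variation was 6.96% in vehicle and 9.33% in JHU083 for cytosolic genes, and 11.7% and 13.7% for mitochondrial genes. It was higher in JHU083 than in vehicle for 14 of 20 and 11 of 15 genes.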

How the data were processed

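RNA of 10 sorted macrophage samples was analysed. Per the labels' protocols, poly(A) RNA was isolated, fragmented and randomly primed. The submitters' processing notes name bcl2fastq 2.17.1.14, FastQC 0.11.2, TopHat2 2.1.1 and GRCm38; the counting program, its strand setting and the annotation are not given in the sources used here. The column deposited by the authors under the name of raw counts holds estimated counts that are multiples of a step per sample (0.888 to 1.17); division by the step gave whole fragments (within 0.05) for 99.7% to 99.9% of positive values, then rounded. The authors deposited a second column that from its values is FPKM. Over the 8186 loci with at least 100 fragments in every sample, the length behind it was within 10% of its median for 88.6% of values. Among the members this length varied between samples by up to 2.97-fold, in Pars2. The column was used for levels between genes, its values in each group are a description, and treatment differences are read from CPM. One locus with no symbol (at most 0.0021% of fragments) was left out. Loci passing filterByExpr were scaled by TMM and compared with edgeR 4.0.16 in R 4.3.3 (quasi-likelihood, no covariate, Benjamini-Hochberg at 0.05). CPM uses TMM-scaled totals. On simulated counts for 12500 loci with 200 changed by 1 on the log2 scale, edgeR recovered 83.0% with 5.7% false calls. DESeq2 recovered 85.0% with 15.8% false calls. Recovery of smaller differences, such as those of most members, was not simulated. Other settings tried were limma-voom (limma 3.58.1), DESeq2 1.42.0, other scalings and filters, leaving out each sample, a replicate block, and fits by the repeat loci listed at 0. Members and lists were chosen with earlier results of these data known. Members called or with a log2 difference of 0.3 or more, and Vars, are given in every sample and the other members by range. Named from the other lists are up to 4 called genes per list plus Atf4, Eif2ak4, Aimp1, Aimp2, Eef1e1 and Xpot. Other genes of the lists (those of the ATF4 list, Eef1d, Sepsecs, Qrsl1, Gatb, Mki67, Pcna, Itgam, Ptprc, Hspa1a and Hspa1b) were added after their values were seen.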

Additional observations from a re-analysis of the deposited data

Results flagged for a closer look

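In 70 groups of 5 samples (35 members, both treatments), a gap test for a single sample at the end of its group (critical value 0.71) marked 6, where chance marks about 1 in 20, or 3.5. All values are log2 CPM. Farsa was high in JHU083 replicate 3, at 6.17 against 5.74 to 5.82 in the others. Rars was low in JHU083 replicate 2, at 6.04 against 6.41 to 6.45, and Nars was low in the same sample, at 7.83 against 7.99 to 8.04. Lars was low in vehicle replicate 2, at 6.15 against 6.27 to 6.30. Cars2 was low in vehicle replicate 3, at 3.96 against 4.23 to 4.34, and Pars2 in the same sample, at -0.57 against 0.91 to 1.30.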

How the results depend on the processing

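Over the members other than Vars, 680 of 746 values under an alternative kept their direction and side of the threshold, 50 lost the call, 11 gained it and 5 reversed. Reversals were Qars (0.13), Iars2 (-0.01) and Yars2 (0.12) within the samples with repeat loci at 0, and, without JHU083 replicate 1, Hars2 (-0.20 to 0.01 over the fits that leave out 1 sample) and Yars2 (-0.20 to 0.02); none of these was called. Within the samples with those loci at 0, 532 loci were called higher and 585 lower, and 0 cytosolic and 0 mitochondrial genes lower; within the others 1274 loci higher and 1544 lower, and 6 cytosolic and 3 mitochondrial genes lower. Such fits have 5 samples, and the cause was not tested. Nars was not called (0 cytosolic genes higher) in either of these fits, with library-size scaling, with no filter or with the replicate block. Leaving out each sample gave 0 to 1 cytosolic genes higher (0 without vehicle replicate 2), 11 to 14 lower, 0 to 1 mitochondrial genes higher (Wars2 without JHU083 replicate 5) and 3 to 7 lower (3 without vehicle replicate 5, JHU083 replicate 1 or JHU083 replicate 5), against 14.5% to 22.9% of all loci higher and 15.1% to 23.2% lower, with medians of -0.31 to -0.27 and -0.26 to -0.10. With library-size scaling the cytosolic median was -0.37, the median of all loci moved by -0.08, and 33.2% of called loci were higher, against 50% in the values reported. The labels do not say whether replicate numbers pair the samples. Correlations of same-numbered samples were -0.57 to 0.09, with 0 of 5 highest with their own number, which cannot settle pairing with so few samples. With the replicate block 9 cytosolic and 3 mitochondrial genes were called lower, against 14.1% of all loci (18.3% without the block). Levels per implied length moved a member by at most 1 rank. Pars2 had the fewest fragments and the widest standard error of the members.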
